A study of Mus musculus with 12 samples.

Results

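The 10 genes described here are liver genes that fasting raises or lowers and that insulin controls, measured in livers of SIRT3KO and wild-type mice. They are Igfbp1, Pdk4, G6pc, Pck1, Tat, Fgf21, Angptl8, Irs2, Foxo1 and Ppargc1a, taken as a fixed list of names. The list was chosen with earlier results of these data known. All 10 were found among the 19938 genes of the array, on 11 of its 35557 probe sets, with 2 sets for Ppargc1a. The study measured liver expression in 129Sv mice aged 12 weeks to find differences that follow diet. SIRT3 is a mitochondrial deacetylase. SIRT3KO and wild-type mice ate a Western diet with 42% fat from weaning or a standard diet, and every mouse was fasted for 24 h before the liver was taken. The Western diet is called high-fat below. There were 3 arrays in each of 4 groups, which were SIRT3KO on the high-fat diet, wild type on the high-fat diet, SIRT3KO on the standard diet and wild type on the standard diet. The labels used here describe neither how Sirt3 was deleted nor in which cells. They do not say that the replicates of a group are separate animals, so the p-values measure the spread between arrays. Because every liver came from a fasted mouse, the values compare diets and genotypes in the fasted state and hold no fed sample.

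In a fasted liver glucagon and glucocorticoids turn on glucose production and insulin is low. After a meal insulin activates AKT, which phosphorylates FOXO1 and keeps it out of the nucleus, so that FOXO1 targets such as Igfbp1, G6pc and Irs2 fall. Other members follow other signals, since Pdk4 and Fgf21 are targets of the fatty acid receptor PPAR-alpha, Pck1 and Ppargc1a answer cAMP, and Angptl8 runs the opposite way and is low in fasting.

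The promoters of 4 members are shown because they hold letters known from the response to insulin or to cAMP. They come from RefSeq on GRCm38.p6, each as the 250 bases before the gene's start on the gene's own strand, and all 10 members were matched in that table. Capitals mark the insulin response element letters CAAAACA, or their reverse complement TGTTTTG, and the short form of the cAMP response element, TGACG, or its reverse complement CGTCA. The windows are chr11:7197537-7197786 (plus strand) for Igfbp1, chr11:101367466-101367715 (plus strand) for G6pc, chr8:11008930-11009179 (minus strand) for Irs2 and chr2:173152823-173153072 (plus strand) for Pck1.

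Igfbp1: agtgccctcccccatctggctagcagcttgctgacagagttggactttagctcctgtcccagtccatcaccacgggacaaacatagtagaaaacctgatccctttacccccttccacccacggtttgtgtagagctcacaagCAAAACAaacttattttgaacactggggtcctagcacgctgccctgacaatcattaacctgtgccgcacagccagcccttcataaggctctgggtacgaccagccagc

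G6pc: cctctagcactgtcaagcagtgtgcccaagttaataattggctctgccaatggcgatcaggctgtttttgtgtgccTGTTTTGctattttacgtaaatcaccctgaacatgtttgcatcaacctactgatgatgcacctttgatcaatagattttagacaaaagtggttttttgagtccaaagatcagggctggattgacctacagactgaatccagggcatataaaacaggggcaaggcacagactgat

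Irs2: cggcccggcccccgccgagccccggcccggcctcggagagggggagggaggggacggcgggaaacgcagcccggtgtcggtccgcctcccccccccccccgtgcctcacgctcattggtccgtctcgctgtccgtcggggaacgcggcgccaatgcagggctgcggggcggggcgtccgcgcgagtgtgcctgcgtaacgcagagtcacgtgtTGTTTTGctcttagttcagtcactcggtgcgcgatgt

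Pck1: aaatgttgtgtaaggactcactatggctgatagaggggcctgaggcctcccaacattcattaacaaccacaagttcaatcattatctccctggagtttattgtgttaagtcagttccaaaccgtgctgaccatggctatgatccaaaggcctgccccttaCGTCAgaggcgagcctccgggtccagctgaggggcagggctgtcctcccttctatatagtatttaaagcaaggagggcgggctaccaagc

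The search covered both strands of a window of 300 bases, 250 before the start and 50 after it. CAAAACA occurred in 3 of the 10 members, 108 bases before the start in Igfbp1, 174 before it in G6pc and 37 before it in Irs2, and in 6.28% of all 32851 promoters of the table. TGACG occurred in 3 of the 10, 90 bases before the start in Pck1, 49 in Ppargc1a and 68 in Fgf21, and in 20.8% of all promoters. The forkhead letters TAAACA (13.4% of all promoters), the full cAMP element TGACGTCA (1.79%), the short glucocorticoid element TGTTCT (19.0%) and the PPAR element DR1 (0.0396%) were found in none of the 10 windows. A match describes the letters in these windows, and an absent match says only that these letters are not there.

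Values are log2 expression as deposited, so a difference of 1 is a doubling, and a gene was called at an adjusted p under 0.05 over all genes. Array medians lay between 6.34 and 6.47. Sirt3 was lower on every knockout array than on every wild-type array of the same diet, at 8.92, 8.49 and 8.87 in SIRT3KO against 9.29, 9.14 and 9.13 in the wild type on the high-fat diet, and at 8.83, 8.94 and 8.95 against 8.97, 9.04 and 9.13 on the standard diet. The Sirt3 difference was -0.42 (SE 0.108, adjusted p = 1 by limma) on the high-fat diet and -0.14 (SE 0.108, adjusted p = 0.66) on the standard diet, so it was called on neither diet and the knockout arrays kept most of the signal. The labels do not say whether the probes lie in the deleted part. Groups that do not overlap, with the knockout lower, were seen for 4.27% of genes on the high-fat diet and 4.52% on the standard diet. Among the hepatocyte markers Alb, near the top of all levels, lay between 14.05 and 14.16. Hnf4a, the dimmest of them, lay between 11.50 and 11.94. Markers stood apart on 3 arrays: the mean of 19 acute-phase genes was 1.27 above its 12-array mean on SIRT3KO standard-diet replicate 1, that of 6 muscle markers 1.48 above on SIRT3KO standard-diet replicate 2, and that of 7 macrophage markers 0.50 above on wild-type high-fat replicate 3.

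Across diets the clearest differences were in Igfbp1 and Pdk4. In SIRT3KO livers 2 of the 10 genes fell on the high-fat diet, Igfbp1 and Pdk4, and none rose. Of all genes, 2.66% were called lower in this comparison and 2.45% higher. Of the 10 members, 8 were lower on the high-fat diet in SIRT3KO, as were 52.3% of all genes, and the median member difference was -0.35 against -0.01 over all genes. In the wild type no member was called by limma, although 3 of the 10 (and 22.6% of all genes) had an unadjusted p under 0.05, and 1.69% of all genes were called lower and 4.30% higher. There 9 of the 10 were lower, as were 41.8% of all genes, with a median of -0.29 against 0.04. Diet groups did not overlap, with the high-fat diet lower, for 3 of the 10 in SIRT3KO (13.2% of all genes) and for 1 of the 10 in the wild type (10.9%). Without the 2 arrays that lead the acute-phase and macrophage lists (replicate 1 of standard-diet SIRT3KO and replicate 3 of high-fat wild type) 2 members were called in SIRT3KO, Pdk4 and Tat, and none in the wild type. Without the array that leads the muscle list 1 was called in SIRT3KO, Pdk4. The Igfbp1 difference in SIRT3KO was -1.23 without the first 2 arrays and -1.35 without the muscle array, against -1.51 with all arrays. In bulk liver, fewer cells of a type and less RNA per cell cannot be told apart.

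**Figure D1:**
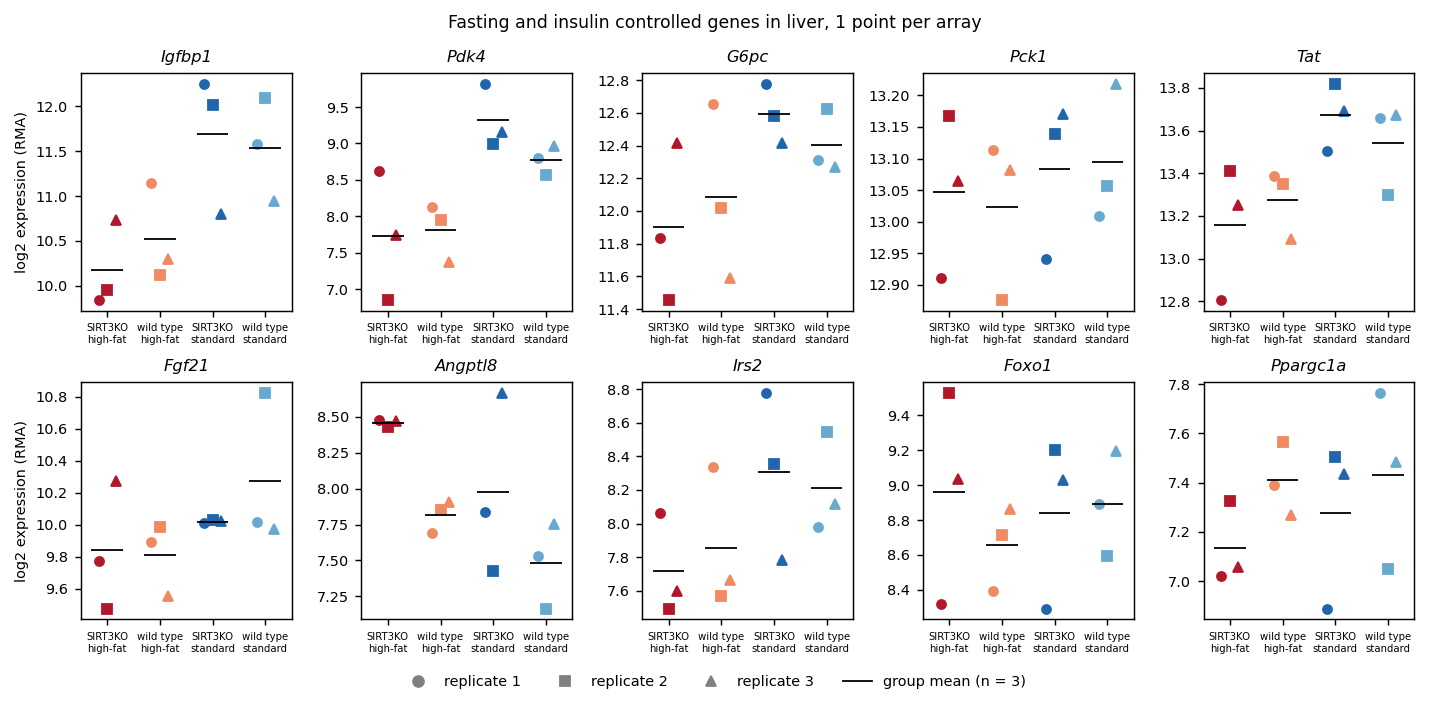
Log2 expression (RMA) of the 10 genes on each array, with groups along the horizontal axis, 1 panel per gene with its own vertical range, and 1 point per array with its shape giving the replicate number. Black bars are group means (n = 3), and the points of Igfbp1 and Pdk4 in SIRT3KO lie lower on the high-fat diet without overlap.

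Igfbp1 encodes a secreted protein that binds IGFs, and its liver transcript is lowered quickly by insulin. Its signal was 9.84, 9.95 and 10.73 on the 3 high-fat SIRT3KO arrays, against 12.25, 12.02 and 10.79 on the 3 standard-diet SIRT3KO arrays. Wild-type values were 11.15, 10.12 and 10.29 on the high-fat diet, against 11.58, 12.10 and 10.95 on the standard diet. The SIRT3KO groups did not overlap, though the gap between 10.73 and 10.79 was narrow, and the wild-type groups overlapped through high-fat replicate 1. Igfbp1 fell 2.85-fold in SIRT3KO (-1.51, SE 0.375, adjusted p = 0.0331 by limma), while its wild-type difference was -1.02 (SE 0.375, adjusted p = 0.123). Averaged over the genotypes it fell by 1.27 (SE 0.265, adjusted p = 0.0054). The SIRT3KO call was lost without standard-diet replicate 1 (adjusted p = 0.11) or replicate 2 (0.116), and without high-fat replicate 1 (0.0924) or replicate 2 (0.116). It was also lost with robust moderation (0.116), in a fit of the 2 groups alone (0.057) and among genes above the median level only (0.0512).

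Pdk4, a kinase that switches off pyruvate dehydrogenase and so spares glucose in fasting, showed the same order. It read 8.62, 6.85 and 7.74 in SIRT3KO on the high-fat diet, against 9.82, 9.00 and 9.15 on the standard diet. The wild-type values were 8.12, 7.96 and 7.37 on the high-fat diet, against 8.80, 8.57 and 8.96 on the standard diet. Neither genotype overlapped between diets, and the widest spread was in the high-fat SIRT3KO group (SD 0.881, n = 3). Pdk4 fell 3.00-fold in SIRT3KO (-1.58, SE 0.335, adjusted p = 0.0156), and the wild-type difference was -0.96 (SE 0.335, adjusted p = 0.104). Over both genotypes it fell by 1.27 (SE 0.237, adjusted p = 0.00258). Without standard-diet SIRT3KO replicate 1 the adjusted p of the SIRT3KO difference was 0.0573, and without high-fat SIRT3KO replicate 2 it was 0.0569. Robust moderation (0.0678) and a fit of the 2 groups alone (0.0604) lost it too, while the fit of the 2 wild-type groups alone called the wild-type difference (0.0144), as did leaving out high-fat SIRT3KO replicate 1 (0.0406) or 2 (0.045).

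The diets seem to have been normalized in separate runs, so an offset between the runs and the diet cannot be told apart. When an offset variance with an SD of 0.214 was added to the diet comparisons, none of the 10 genes was called in SIRT3KO, in the wild type or on average. The adjusted p in SIRT3KO then became 0.964 for Igfbp1 and 0.572 for Pdk4, and over all genes 5 calls were left in SIRT3KO, 7 in the wild type and 9 on average.

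Of the 3 members that make glucose or feed it from amino acids, Tat fell on average over the genotypes, and G6pc and Pck1 were not called. Tat encodes tyrosine aminotransferase, which breaks down tyrosine and is induced by glucocorticoids. Its signal was 12.81, 13.41 and 13.25 on the high-fat diet in SIRT3KO, against 13.50, 13.82 and 13.69 on the standard diet. Among wild-type livers Tat was 13.39, 13.35 and 13.09 on the high-fat diet, against 13.66, 13.30 and 13.67 on the standard diet. The SIRT3KO groups did not overlap and the wild-type groups did, because wild-type standard-diet replicate 2 lay within the high-fat range. Averaged over the genotypes Tat fell by 0.39 (SE 0.103, adjusted p = 0.0181), a comparison in which 7.69% of all genes were called lower, 10.3% higher, and 3 of the 10 members (Igfbp1, Pdk4 and Tat). Within SIRT3KO its difference of -0.52 (SE 0.146) had an adjusted p of 0.0554, and within the wild type -0.27 (SE 0.146) had 0.299. The SIRT3KO difference was called without high-fat SIRT3KO replicate 2 (0.0489), without both arrays that lead the acute-phase and macrophage lists (0.0481), and after quantile normalization of all arrays (0.032).

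G6pc, the catalytic subunit of glucose-6-phosphatase that releases free glucose, was 11.83, 11.46 and 12.42 in SIRT3KO on the high-fat diet, against 12.78, 12.58 and 12.41 on the standard diet. On wild-type arrays G6pc was 12.65, 12.02 and 11.59 on the high-fat diet, against 12.31, 12.63 and 12.27 on the standard diet. Both genotypes overlapped between diets through a single high-fat array, replicate 3 of SIRT3KO and replicate 1 of the wild type. The difference was -0.69 (SE 0.241, adjusted p = 0.113) in SIRT3KO and -0.32 (SE 0.241, adjusted p = 0.471) in the wild type. On average it was -0.50 (SE 0.171, adjusted p = 0.0545). That average was called without wild-type high-fat replicate 1 (0.0134), without SIRT3KO high-fat replicate 3 (0.0171) and with each array centred on its median (0.0466), and the SIRT3KO difference was called without high-fat replicate 3 (0.0497).

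Pck1, the cytosolic PEPCK that makes phosphoenolpyruvate from oxaloacetate, was the steadiest member. Its 12 values lay between 12.88 and 13.22, with group means of 13.05 in SIRT3KO and 13.02 in the wild type on the high-fat diet, against 13.08 and 13.09 on the standard diet (SD 0.110 to 0.129, n = 3 each). Its diet difference was -0.04 (SE 0.0962, 95% interval -0.24 to 0.17) in SIRT3KO and -0.07 (SE 0.0962, interval -0.28 to 0.13) in the wild type. All 4 groups overlapped.

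The other enzymes and carriers of glucose production held 18 measured genes. In SIRT3KO 2 of them fell and none rose, Got1, the cytosolic aspartate aminotransferase, by 0.76 (SE 0.138, adjusted p = 0.00681) and Tpi1, triosephosphate isomerase, by 0.33 (SE 0.0895, adjusted p = 0.046). In the wild type 4 fell and none rose, among them Got1 by 0.61, Tpi1 by 0.42 and Pgk1, phosphoglycerate kinase, by 0.30. The median of the 18 was -0.11 in SIRT3KO and -0.09 in the wild type. Of 12 enzymes of amino acid breakdown, 5 fell in SIRT3KO, with Gldc of glycine cleavage at -0.99 and Arg1 of the urea cycle at -0.62, and 4 fell in the wild type, with Arg1 at -0.72 and Gldc at -0.66.

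Neither hormone of the set was called across diets. Fgf21, a liver hormone of fasting, was 9.77, 9.48 and 10.28 in SIRT3KO on the high-fat diet, against 10.01, 10.03 and 10.02 on the standard diet. Wild-type Fgf21 was 9.89, 9.99 and 9.55 on the high-fat diet, against 10.02, 10.83 and 9.97 on the standard diet. One wild-type standard-diet array, replicate 2, stood above all others, and the groups overlapped in both genotypes. The diet difference was -0.18 (SE 0.213, adjusted p = 0.68) in SIRT3KO, -0.46 (SE 0.213, adjusted p = 0.215) in the wild type and -0.32 (SE 0.151, adjusted p = 0.157) on average. Without wild-type standard-diet replicate 2 the wild-type difference was -0.18 (adjusted p = 0.648) and the average -0.18 (adjusted p = 0.352).

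Angptl8, a secreted inhibitor of lipoprotein lipase action that insulin and feeding induce, was the 1 member higher on the high-fat diet in both genotypes. It was 8.48, 8.43 and 8.47 in SIRT3KO on the high-fat diet, against 7.84, 7.42 and 8.67 on the standard diet. Wild-type Angptl8 was 7.69, 7.85 and 7.91 on the high-fat diet, against 7.53, 7.16 and 7.76 on the standard diet. Replicate 3 of the standard-diet SIRT3KO group was the highest of all 12 arrays, above every high-fat array. The diet difference was 0.48 (SE 0.227, adjusted p = 0.233) in SIRT3KO, 0.34 (SE 0.227, adjusted p = 0.409) in the wild type and 0.41 (SE 0.160, adjusted p = 0.0923) on average. Without that replicate the SIRT3KO difference was 0.83 (adjusted p = 0.0106) and the average 0.58 (adjusted p = 0.00283).

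Irs2, an adaptor that carries the insulin receptor's signal in hepatocytes, was 8.06, 7.49 and 7.60 in SIRT3KO on the high-fat diet, against 8.78, 8.36 and 7.78 on the standard diet. Wild-type Irs2 was 8.34, 7.57 and 7.66 on the high-fat diet, against 7.98, 8.54 and 8.12 on the standard diet. The groups overlapped through replicate 1 of each high-fat group, the highest Irs2 array of its group. The difference was -0.59 (SE 0.246, adjusted p = 0.184) in SIRT3KO, -0.36 (SE 0.246, adjusted p = 0.418) in the wild type and -0.47 (SE 0.174, adjusted p = 0.0756) on average. It was called in SIRT3KO without standard-diet replicate 3 (0.0484). The average was called without that array (0.0193), without wild-type high-fat replicate 1 (0.0317) and without SIRT3KO high-fat replicate 1 (0.0492).

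Foxo1, the forkhead factor that insulin keeps out of the nucleus, ranged on the high-fat diet over 8.32, 9.53 and 9.04 in SIRT3KO, against 8.29, 9.20 and 9.03 on the standard diet. Wild-type Foxo1 was 8.40, 8.71 and 8.87 on the high-fat diet, against 8.89, 8.59 and 9.20 on the standard diet. The groups overlapped in both genotypes, and the differences were 0.12 (SE 0.272, interval -0.46 to 0.70) in SIRT3KO and -0.24 (SE 0.272, interval -0.82 to 0.35) in the wild type. These values are transcript levels and hold nothing on the place or phosphorylation of the protein.

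Ppargc1a encodes PGC-1alpha, a coactivator that fasting induces, and its 2 probe sets disagreed. The brighter set was 7.02, 7.33 and 7.06 in SIRT3KO on the high-fat diet, against 6.89, 7.51 and 7.43 on the standard diet. On wild-type arrays this set was 7.39, 7.57 and 7.27 on the high-fat diet, against 7.76, 7.05 and 7.48 on the standard diet. Its diet difference was -0.14 (SE 0.181) in SIRT3KO and -0.02 (SE 0.181) in the wild type. On the dimmer set the values were 4.93, 5.44 and 5.36 in SIRT3KO on the high-fat diet, against 5.62, 5.80 and 6.09 on the standard diet, which did not overlap. The wild-type values of the dimmer set were 5.53, 5.92 and 5.18 on the high-fat diet, against 6.37, 5.67 and 6.18 on the standard diet. In a fit of all single-gene probe sets the dimmer set differed by -0.60 (SE 0.207) in SIRT3KO, -0.53 (SE 0.207) in the wild type and -0.57 on average (adjusted p = 0.0165), and the brighter set by -0.08 on average (adjusted p = 0.701). Which of the sets follows the main transcript was not tested.

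**Figure D2:**
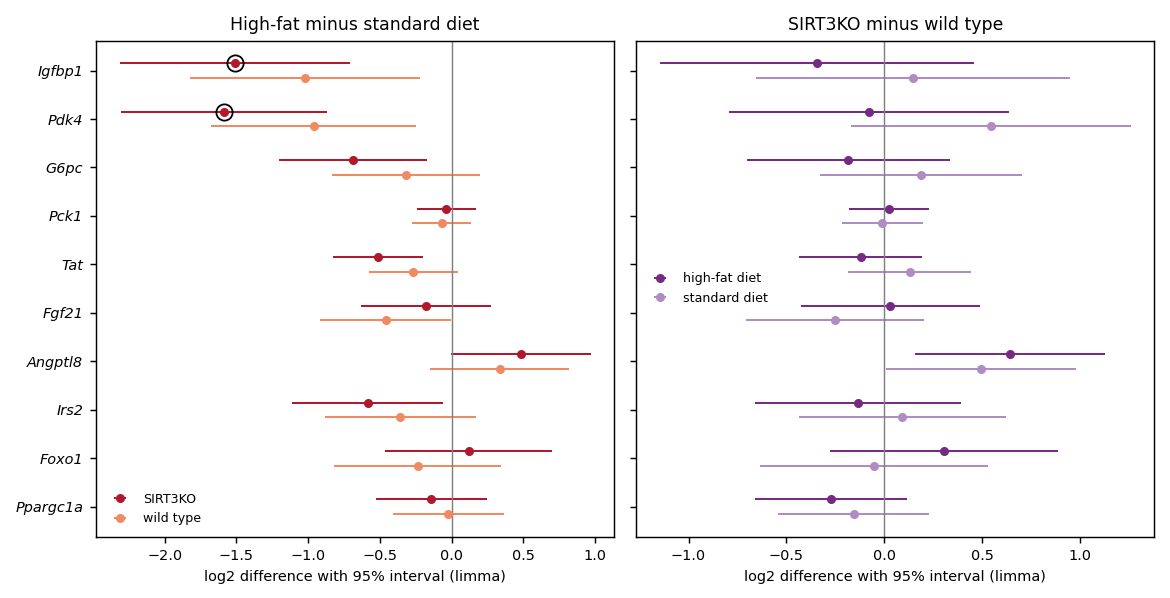
Log2 differences of the 10 genes with their 95% limma intervals, high-fat minus standard diet on the left (SIRT3KO and wild type) and SIRT3KO minus wild type on the right (high-fat and standard diet). Circled points had an adjusted p under 0.05, which were Igfbp1 at -1.51 and Pdk4 at -1.58 in SIRT3KO across diets, while Angptl8 at 0.64 on the high-fat diet was the largest genotype difference of the 10 and had an adjusted p of 1.

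Between the genotypes no member was called on either diet by limma. On the high-fat diet 0% of all genes were called and 2.86% had an unadjusted p under 0.05, and on the standard diet 0.00502% (1 gene) were called and 9.73% had an unadjusted p under 0.05. Among the 10 members, Angptl8 had an unadjusted p under 0.05 on both diets. On the high-fat diet its 3 SIRT3KO arrays at 8.43 to 8.48 all exceeded the 3 wild-type arrays at 7.69 to 7.91, as in 2.41% of all genes with SIRT3KO higher. The difference was 0.64, or 1.56-fold (SE 0.227, unadjusted p = 0.013, adjusted p = 1). On the standard diet the values of 7.84, 7.42 and 8.67 in SIRT3KO overlapped those of 7.53, 7.16 and 7.76 in the wild type, and the difference was 0.49 (SE 0.227, adjusted p = 0.512). Without SIRT3KO standard-diet replicate 3 it was 0.15, and averaged over both diets the difference was 0.57 (SE 0.160, adjusted p = 0.739). Angptl8 lies within the span of Dock6 in the RefSeq annotation, and Dock6 differed by 0.02 (SE 0.0831) on the high-fat diet and by 0.21 (SE 0.0831) on the standard diet.

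Pdk4 was higher on each SIRT3KO array than on each wild-type array of the standard diet, at 9.00 to 9.82 against 8.57 to 8.96, an order shared by 9.88% of all genes. The difference was 0.54 (SE 0.335, adjusted p = 0.59), and it was 0.30 without SIRT3KO replicate 1, the array with the high acute-phase genes. On the high-fat diet the Pdk4 difference was -0.08 (SE 0.335, interval -0.80 to 0.64), and it turned to 0.36 without SIRT3KO replicate 2 and to 0.07 without wild-type replicate 1. For Igfbp1 the genotype difference was -0.35 (SE 0.375) on the high-fat diet and 0.15 (SE 0.375) on the standard diet, where it changed sign without wild-type replicate 3 (-0.15), SIRT3KO replicate 1 (-0.14) or SIRT3KO replicate 2 (-0.02).

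The diet difference was not called as unequal between the genotypes for any member. Of the 10 values 6 were below 0 and 4 above, a split near that of all genes, 60.9% of which lay at or below -0.0033. Igfbp1, Pdk4, G6pc and Tat were among those below 0, and Fgf21 and Foxo1 among those above. As the diet difference in SIRT3KO minus that in the wild type, it was -0.49 (SE 0.530) for Igfbp1, -0.62 (SE 0.473) for Pdk4, -0.37 (SE 0.341) for G6pc and -0.25 (SE 0.207) for Tat, with adjusted p from 0.945 to 0.951. It was 0.28 (SE 0.301) for Fgf21 and 0.35 (SE 0.385) for Foxo1. Leaving out 1 array moved it from -0.94 to -0.18 for Igfbp1, the lowest without standard-diet SIRT3KO replicate 3 and the highest without high-fat wild-type replicate 1. For Pdk4 it ran from -1.06 without high-fat SIRT3KO replicate 1 to -0.18 without high-fat SIRT3KO replicate 2. The ranges were -0.63 to -0.089 for G6pc, -0.38 to -0.074 for Tat, 0.0050 to 0.46 for Fgf21 and 0.071 to 0.68 for Foxo1. Of all genes 0% were called and 4.73% had an unadjusted p under 0.05. The interval for Pdk4 ran from -1.63 to 0.39 and that for Igfbp1 from -1.63 to 0.64, so neither an equal response nor one larger in SIRT3KO by 1 on the log2 scale is outside it.

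Within groups most of these genes were among the most variable on the array. The within-group SD, pooled over the 4 groups, was 0.609 for Igfbp1, 0.539 for Pdk4, 0.434 for Foxo1, 0.389 for Irs2 and 0.385 for G6pc, against a median of 0.140 over all genes. The share of all genes with a smaller or equal SD was 99.8% for Igfbp1, 99.6% for Pdk4, 99.2% for Foxo1 and 98.9% for both Irs2 and G6pc. It was 98.5% for Angptl8 (SD 0.355), 98.1% for Fgf21 (0.334), 95.7% for Ppargc1a (0.271), 89.1% for Tat (0.220) and 36.8% for Pck1 (0.123). Among genes of a like level, Pck1 was at 55.6%, near their median SD of 0.115.

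**Figure D3:**
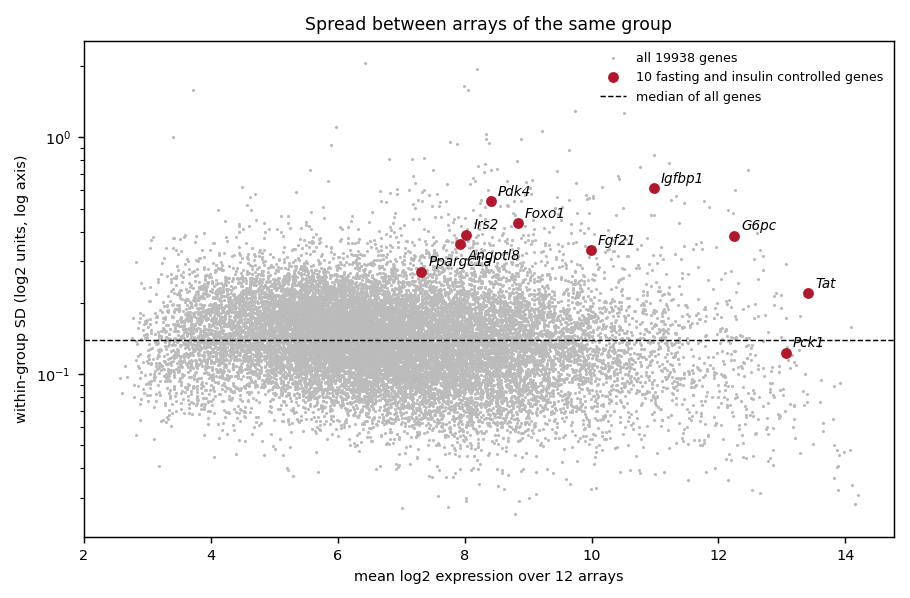
Within-group SD in log2 units (log axis) against the mean log2 expression of each gene over 12 arrays, grey for all 19938 genes and red for the 10 members. The dashed line is the median SD of 0.140, and 9 of the 10 members lie above it, with Igfbp1 at 0.609 and Pck1 at 0.123.

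From array to array Igfbp1 can be followed beside the other members inside the groups. Igfbp1 and G6pc had the same highest array in all 4 groups. On the high-fat diet it was replicate 3 in SIRT3KO and replicate 1 in the wild type. On the standard diet it was replicate 1 in SIRT3KO and replicate 2 in the wild type. Among all other genes, 0.903% shared the highest array of Igfbp1 in all 4 groups and 8.92% in at least 3. A match in all 4 held for 1 of the 45 pairs of members, and 5 other pairs shared the highest array in 3 groups. Irs2 shared the highest array with Igfbp1 in 3 of the 4 groups. Over the 12 arrays, after subtraction of the group means, Pearson's r of Igfbp1 was 0.73 with G6pc, 0.69 with Irs2, 0.53 with Fgf21, 0.09 with Pdk4 and -0.76 with Angptl8. Spearman's rho for the same pairs was 0.76, 0.66, 0.41, 0.10 and -0.78. Of all genes, 1.51% had an r with Igfbp1 at or above that of G6pc, 2.40% at or above that of Irs2 and 9.40% at or above that of Fgf21. For the negative r of Angptl8, 99.75% of all genes lay at or above it. The points share arrays and normalization, so these coefficients describe these arrays. Without standard-diet SIRT3KO replicate 3, the array farthest from its group mean in Igfbp1, r was 0.77 with G6pc, 0.58 with Irs2 and -0.64 with Angptl8.

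**Figure D4:**
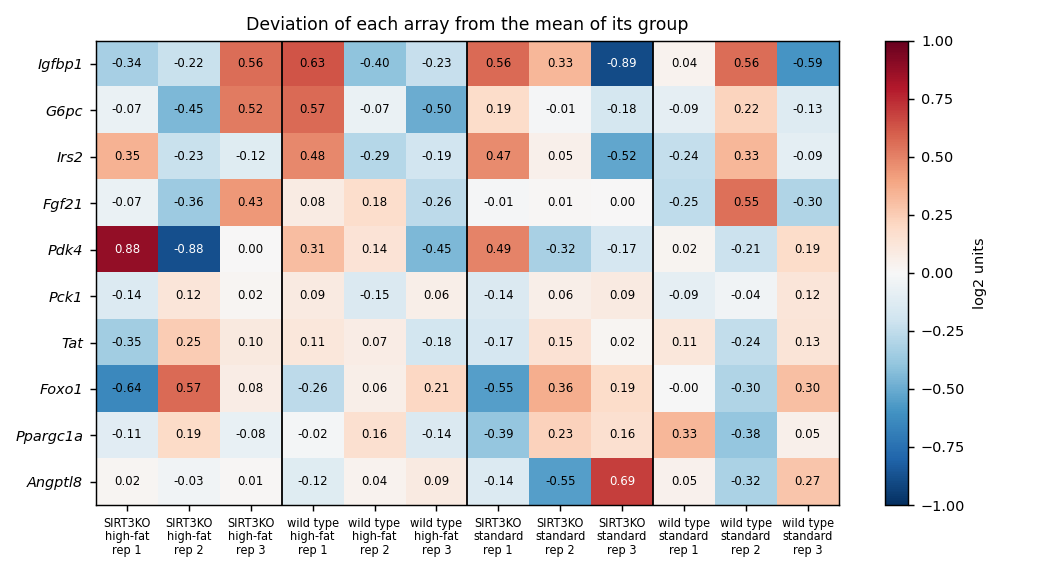
Deviation of each array from its group mean in log2 units, with genes down the side and the 12 arrays across, red for higher and blue for lower. On standard-diet SIRT3KO replicate 3 Igfbp1 was at -0.89 and Irs2 at -0.52 while Angptl8 was at 0.69, and Foxo1 was at its lowest on replicate 1 of 3 groups, at -0.64, -0.26 and -0.55.

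The genes most like Igfbp1 over the 12 arrays, by the same r, were Klrb1b (0.95), Sapcd1 (0.92), Ppic (0.92), Glipr1l2 (0.91) and Mettl21c (0.91). Their within-group SD ran from 0.0986 for Glipr1l2 to 0.152 for Sapcd1, so their excursions were small beside that of Igfbp1, and 3 of the 5 were among the dimmer genes. The share of genes at or below their level was 3.37% for Mettl21c, 5.95% for Glipr1l2 and 15.6% for Klrb1b. For Foxo1 r was -0.82 with Pdk4 and -0.75 with Irs2, and 0.75 with Tat and 0.70 with Pck1. The values with Pdk4 and Tat are the lowest and highest of the 45 member pairs. The highest Irs2 array was the lowest Foxo1 array in all 4 groups, as in 1 of the 45 pairs. The share of all genes with such a match to Foxo1, or with such an r, was not computed.

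Replicate 1 of 3 groups (high-fat SIRT3KO, high-fat wild type and standard-diet SIRT3KO) held both the lowest Foxo1 and the highest Pdk4 of its group. Foxo1 was 8.32, 8.40 and 8.29 there, and 8.59 to 9.53 on the other 9 arrays. Lpin1, a phosphatidate phosphatase and coactivator that glucocorticoids induce in fasting, was picked after its values were seen, as were Fkbp5 and Zbtb16, both also glucocorticoid-induced. Lpin1 was 8.24, 8.27 and 8.96 on these 3 arrays, against 10.50 to 11.95 on the other 9. Zbtb16 was 7.70, 7.32 and 7.70, against 8.29 to 9.89 on the others. Fkbp5 was lowest on both high-fat arrays of the 3, at 8.44 in SIRT3KO and 8.42 in the wild type. On the standard-diet SIRT3KO array it was 9.94, the lowest of its group, against 10.30 and 10.39. The mean of 16 glucocorticoid receptor and target genes was 0.56 below its 12-array mean on the high-fat SIRT3KO array, 0.59 below on the high-fat wild-type array and 0.12 above on the standard-diet SIRT3KO array. That last value was also the lowest of its group, against 0.29 and 0.30 above. The 16 genes include Lpin1, Fkbp5 and Zbtb16, and a mean without these 3 genes was not computed. In that group Lpin1 was 8.96 on replicate 1 against 11.8 and 11.4, and Zbtb16 was 7.70 against 9.80 and 9.87. The pattern was not particular to glucocorticoid genes, since the mean of 16 clock genes was also the lowest of its group on the same replicate 1 arrays. Relative to its 12-array mean it was 0.01 in high-fat SIRT3KO, against 0.51 and 0.46. In high-fat wild type it was 0.06, against 0.10 and 0.21, and in standard-diet SIRT3KO -0.44, against -0.01 and 0.09. Per1 is on both lists. The part of this pattern in the member differences was not tested.

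**Figure D5:**
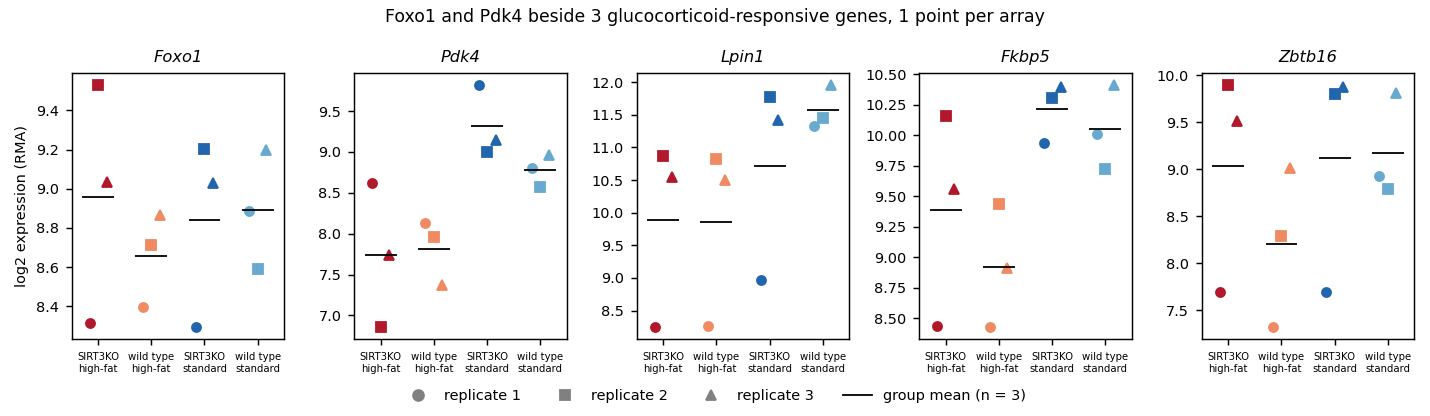
Log2 expression (RMA) of Foxo1 and Pdk4 beside Lpin1, Fkbp5 and Zbtb16 on each array, with groups along the horizontal axis and black bars for group means (n = 3). Circles are replicate 1. In both high-fat groups and in standard-diet SIRT3KO they are the lowest Foxo1, Lpin1, Fkbp5 and Zbtb16 values and the highest Pdk4 values.

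The pathway lists around the members are set against the shares of all genes called, which were 2.45% higher and 2.66% lower in SIRT3KO, 4.30% higher and 1.69% lower in the wild type and 10.3% higher and 7.69% lower on average. For insulin signalling, the cAMP pathway and other FOXO1 targets the counts within a genotype were at most 1 gene. Of 25 components of insulin signalling, 1 rose in SIRT3KO on the high-fat diet, Pik3cb, a catalytic subunit of PI3K, by 0.51 (SE 0.134, adjusted p = 0.0408), and none was called in the wild type. Of 15 genes of the glucagon and cAMP pathway none was called in SIRT3KO and 1 rose in the wild type, the orphan receptor Nr4a2 (0.49, adjusted p = 0.0498). Of 14 other FOXO1 targets 1 rose in SIRT3KO, Bcl6, a transcriptional repressor, by 1.61 (SE 0.417, adjusted p = 0.0391), and none was called in the wild type, where Bcl6 differed by 1.29 (adjusted p = 0.0826). Bcl6 was at 8.79 to 9.27 on the high-fat diet in SIRT3KO against 6.89 to 7.97 on the standard diet. Averaged over genotypes 3 of the 25 insulin signalling genes rose and 1 fell, 2 of the 15 cAMP genes rose, and 1 of the 14 FOXO1 targets rose and 2 fell.

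The glucocorticoid receptor and target list of 16 genes had no call in either genotype, but 15 of the 16 were lower on the high-fat diet in SIRT3KO and 13 of 16 in the wild type. Its median difference was -0.24 in each. In the comparison averaged over genotypes 3 of the 16 fell, with Fkbp5 at -0.98 (adjusted p = 0.0124), and 1 rose, the receptor gene Nr3c1 itself (0.26, adjusted p = 0.0337). These values stand beside the fall of Tat in the same comparison, and their part in it was not tested.

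PPAR-alpha targets of fasting did not move one way. Of 22, 2 rose and 1 fell in SIRT3KO, and 1 rose and 1 fell in the wild type, and on average 6 rose and 2 fell. Cd36, a fatty acid transporter, rose by 1.96 in SIRT3KO and by 1.82 in the wild type, and Plin5, a lipid droplet protein, fell by 0.86 in SIRT3KO and by 0.54 in the wild type. Among the pyruvate dehydrogenase kinases and phosphatases other than Pdk4, all 5 measured genes were higher on the high-fat diet in both genotypes. Pdk2 rose in SIRT3KO by 0.53 (SE 0.117, adjusted p = 0.0192) and Pdk3 rose in the wild type by 0.49 (SE 0.112, adjusted p = 0.0216), so in SIRT3KO Pdk4 fell and a related kinase rose. Averaged over genotypes 3 of the 5 rose, Pdk2 (0.45), Pdk3 (0.42) and Pdk1 (0.29). Pdk3 was dim, with 13.1% of genes at or below its level.

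Of the 15 genes of fat synthesis and glycolysis that insulin induces, 4 rose and 4 fell in SIRT3KO and 3 rose and 3 fell in the wild type. Scd1, stearoyl-CoA desaturase, rose by 1.85 in SIRT3KO and by 3.38 in the wild type, and Srebf1, which encodes SREBP-1, by 1.18 in SIRT3KO and by 1.27 in the wild type. Insig1, which retains SREBP in the endoplasmic reticulum, fell by 0.96 in SIRT3KO and by 0.93 in the wild type, and Acacb, an acetyl-CoA carboxylase, fell by 0.73 in SIRT3KO and by 0.88 in the wild type. Of 9 genes of the IGF axis other than Igfbp1, the growth hormone receptor gene Ghr rose in SIRT3KO (0.37) and in the wild type (0.35), and Igfbp5 rose in the wild type (0.49). Igfbp2, which encodes another IGF-binding protein of liver, differed by -0.02 in SIRT3KO and by -0.11 in the wild type, uncalled in both. Of 4 other angiopoietin-like genes and 7 FGF and FGF receptor genes none was called in either genotype.

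Clock genes differed strongly between the diets, and genes of glucose production are known to follow the clock. Of 16 clock genes 7 rose and 1 fell on the high-fat diet in SIRT3KO, and 5 rose and 1 fell in the wild type. Dbp rose by 1.79 in SIRT3KO and by 1.68 in the wild type, Bhlhe41 rose by 1.27 in SIRT3KO and by 1.33 in the wild type, and Arntl fell by 1.22 in SIRT3KO and by 1.04 in the wild type. The hour at which the livers were taken is not given in the sources used here, so hour and diet cannot be told apart. Among markers of other cells in the diet comparisons, 3 of 6 lymphocyte markers rose in the wild type (median 0.42), Ncr1, Cd79a and Cd3e, and 1 of 6 in SIRT3KO (median 0.08), Ncr1 of natural killer cells. Ncr1 and Cd79a were dim, with 9.38% and 11.4% of genes at or below their level, against 49.9% for Cd3e. Of 6 endothelial markers 1 rose in each genotype, Stab2, by 0.41 in SIRT3KO and by 0.39 in the wild type, and 2 of 7 stellate cell markers rose on average, Lrat (0.31) and Col3a1 (0.27). The macrophage list had no call and a median of -0.06 in SIRT3KO and 0.31 in the wild type, where all 7 were higher. The muscle list was at -0.61 in SIRT3KO, where all 6 were lower, and 0.01 in the wild type. Standard-diet SIRT3KO replicate 2 stood apart, with a mean log2 level of the list of 8.33. The mean level was 6.80 and 6.66 on the other standard-diet SIRT3KO arrays, and 6.80, 6.79 and 6.61 on the high-fat SIRT3KO arrays. The SIRT3KO fall in mean level thus rested on that 1 array. The part of these cell markers in the member differences was not tested.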

How the data were processed

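Liver RNA was measured on 12 Affymetrix arrays, 3 in each group of genotype and diet, grouped and numbered as labelled. The authors deposited log2 values that RMA produced in Affymetrix Expression Console (per the submitters' processing notes; version not given in the sources used here). RMA gives the arrays of 1 run the same distribution before it combines a set's probes, so values are comparable only within a run. Runs appear to follow the diets: 335 probe sets had no value on the standard-diet arrays, and pairs of arrays shared a median of 20 identical values within the standard diet (11 to 31), 7 within the high-fat diet (2 to 15) and 0 between diets (0 to 1). Genotype comparisons and the interaction lie within runs, and diet comparisons across them.

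Of 35557 probe sets, 21789 had 1 gene symbol, 1621 several and 12147 none listed, and 21698 single-gene sets matched RefSeq by Entrez ID. For genes with several sets (999) the brightest over all arrays was kept, leaving 19938. Group means over all 12 arrays were fitted in limma (3.58.1, R 4.3.3) and variances moderated with an intensity trend; residual degrees of freedom were 8, and 14.5 at the median after moderation. The p-values were adjusted by Benjamini-Hochberg over all genes, with calls at 0.05. The fit was tested on simulated data. The offset variance was estimated from 1229 chemosensory receptor genes. The number of arrays limits the precision.

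The members, the pathway and marker lists and their comparisons were chosen with earlier results of these data known. The text names all members, up to 4 called genes of a list (otherwise up to 2 as values) and the 5 genes most correlated with Igfbp1, leaving out predicted, clone-named, chemosensory and small RNA genes. Sirt3, Dock6, Igfbp2, Lpin1 and Zbtb16 are among the genes named outside this rule. The labels do not say whether replicate numbers pair the arrays. Correlations over genes of the deviations between same-numbered arrays ran from 0.05 to 0.24 for number 1. They ran from -0.22 to 0.06 for number 2 and from -0.27 to 0.41 for number 3. The same was not computed for arrays with different numbers, so these ranges cannot decide whether the numbers pair the arrays. A pairing that touches only some genes was not tested either. Alternatives were robust or untrended moderation, the compared groups alone, the replicate number as a block, brighter genes only, all probe sets, quantile normalization, median centring, a threshold of 0.10 and leaving out each array. Added later were the averaged comparisons and the omission of 2 arrays. Figures were drawn with matplotlib 3.10.9.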

Additional observations from a re-analysis of the deposited data

How the results depend on the processing

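The limits are 3 arrays per group and an offset between the diets' runs that cannot be separated from diet. Of the single-gene values under all settings, 903 kept direction and side of the threshold, 22 gained a call, 17 lost one and 17 changed sign. The count of members called across diets in SIRT3KO (2) was 0 with robust moderation, 0 in a fit of the compared groups, 1 among genes above the median level, 0 with an offset variance and 0 to 4 when 1 array was left out. In the wild type (0) it was 1 in the compared groups and 0 to 1 with an array left out, and averaged over genotypes (3) it was 5 with the replicate number as a block, 6 at a threshold of 0.10, 0 with the offset variance and 3 to 5 with an array left out. Across diets in SIRT3KO limma also called Tat at a threshold of 0.10 (adjusted p = 0.0554) and after quantile normalization of all arrays (0.032). The replicate block added Irs2 (adjusted p = 0.0451) and Angptl8 (0.0481) to the average and changed no other call. Whether the numbers pair the arrays is not known, so this block says nothing of the size of the effects. The genotype and interaction counts stayed at 0 under every setting run. Signs turned, for uncalled differences, when an array was left out: Pdk4 between genotypes on the high-fat diet ran from -0.52 to 0.36, Igfbp1 between genotypes on the standard diet from -0.15 to 0.59, and across diets in SIRT3KO Pck1 from -0.11 to 0.032, Fgf21 from -0.40 to 0.0034 and Foxo1 from -0.16 to 0.44. Across diets in the wild type Pck1 ran from -0.12 to 0.0032 and Ppargc1a from -0.22 to 0.14. Without the arrays that lead the acute-phase and macrophage lists, chosen after the data were seen, Igfbp1 between genotypes on the standard diet was -0.14, Foxo1 across diets in SIRT3KO -0.15 and Ppargc1a across diets in the wild type 0.047. The cause of these changes was not tested.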
